A study of Mus musculus with 6 samples.

Results

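The 7 enzymes of the pentose phosphate pathway (G6pdx, Pgls, Pgd, Rpia, Rpe, Tkt and Taldo1) were followed in mouse Th17 cultures that differentiated with oligomycin or with the vehicle DMSO. Members were taken by gene symbol from a deposited table of 10041 rows. 6 of the 7 symbols had a row of their own, and Tkt was named only in a row shared with the microRNA gene Mir3076, which lies inside Tkt on the same strand. That row is described beside the 6 others as the Tkt row, since the part of Mir3076 in its value cannot be told apart.

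Levels were measured by RNA-seq in 3 libraries of cultures given oligomycin (2.5 ng/ml), an inhibitor of the mitochondrial ATP synthase and so of oxidative phosphorylation, and in 3 libraries of cultures given DMSO. The cultures behind all 6 libraries started from naive CD4 T cells and were kept for 48 h under Th17 conditions. These were 10 µg/ml of anti-CD3e bound to the plate, 1 µg/ml of anti-CD28, 20 ng/ml of IL-6, 2.5 ng/ml of TGFb1 and 10 ng/ml of IL-23. The sources used here do not give strain, age or genotype of the mice, nor say whether libraries of a group came from separate animals or cultures, so p-values measure the spread between these libraries, which may be technical. The series asks how differentiation of Th17 cells depends on oxidative phosphorylation, and the comparison here asks how transcripts of a cytosolic sugar pathway stood when it was blocked.

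The pentose phosphate pathway branches from glycolysis at glucose 6-phosphate. Its oxidative branch (G6pdx, Pgls and Pgd) turns that sugar into ribulose 5-phosphate and yields NADPH, the reductant for lipid synthesis and for glutathione recycling. Its non-oxidative branch (Rpia, Rpe, Tkt and Taldo1) interconverts pentose phosphates with glycolytic sugar phosphates in both directions, so cells can make ribose for nucleotides with or without NADPH. Activated T cells, which grow and divide quickly, draw on both outputs.

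In short, oligomycin cultures held less mRNA for both NADPH-forming dehydrogenases, Pgd and G6pdx, and less in the Tkt row, while the lactonase gene Pgls between the dehydrogenases and the pentose isomerase and epimerase genes Rpia and Rpe did not pass the test. Taldo1 was lower with an adjusted p just under the threshold. Values are given in FPKM, which counts fragments relative to transcript length and to the fragments mapped in a library, so levels can be compared between genes per length. A level is a share of a library, not an amount per cell, and in such bulk samples fewer cells of a type and less RNA per cell cannot be told apart.

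The table's loci, counted from 1 on GRCm38, place Pgd on chromosome 4 (149149985 to 149166707), Rpia on chromosome 6 (70765720 to 70792175), Taldo1 on chromosome 7 (141392160 to 141402976), Pgls on chromosome 8 (71592184 to 71596267) and the Tkt row on chromosome 14 (30549149 to 30574722). G6pdx shares its table locus on chromosome X (74393291 to 74453778) with Ikbkg, which lies on the opposite strand. Rpe shares its table locus on chromosome 1 (66700893 to 66817595) with Kansl1l, whose transcripts overlap those of Rpe on the opposite strand.

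The promoter sequences of the 3 oxidative enzymes are shown because these genes act in sequence in one branch and yet differed in their change. Each run is the 250 bases before the RefSeq transcription start (GRCm38.p6), 5′ to 3′ on the gene's strand, and capitals mark matches on either strand to the 6 motifs searched.
G6pdx (chrX:74428881-74429130, minus strand): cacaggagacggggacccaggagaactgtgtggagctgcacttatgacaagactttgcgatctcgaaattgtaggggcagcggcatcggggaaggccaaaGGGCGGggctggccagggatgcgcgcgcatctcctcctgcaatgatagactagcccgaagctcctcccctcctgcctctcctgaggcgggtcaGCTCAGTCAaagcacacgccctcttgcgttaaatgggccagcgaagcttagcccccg
Pgls (chr8:71591934-71592183, plus strand): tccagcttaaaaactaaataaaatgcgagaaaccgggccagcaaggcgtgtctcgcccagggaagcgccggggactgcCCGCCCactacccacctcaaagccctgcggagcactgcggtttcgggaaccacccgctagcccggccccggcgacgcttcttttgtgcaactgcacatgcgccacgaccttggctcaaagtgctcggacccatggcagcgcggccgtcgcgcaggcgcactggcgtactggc
Pgd (chr4:149166706-149166955, minus strand): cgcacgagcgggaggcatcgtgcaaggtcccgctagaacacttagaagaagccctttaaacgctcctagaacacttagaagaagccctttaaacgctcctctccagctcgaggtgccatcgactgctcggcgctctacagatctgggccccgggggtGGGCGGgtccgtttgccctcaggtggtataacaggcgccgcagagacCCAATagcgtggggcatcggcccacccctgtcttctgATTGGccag
The motifs were TGACNNNGC (the core of the antioxidant response element bound by NRF2), CACGTG (the E-box), ACGTG (the core of the hypoxia response element, also contained in the E-box), TGATGCAAT (the C/EBP-ATF response element), GGGCGG (the GC box) and CCAAT (the CCAAT box), and the window searched ran on for 50 bases past the start. G6pdx held 1 match to TGACNNNGC, a motif found in 12.4% of 32851 promoters of this length in RefSeq and in 14.7% of the 9250 of them that belong to genes in the table, and 1 to ACGTG past its start, a motif found in 19.6% and 27.0% of these promoters. Pgd held 2 matches to CCAAT (found in 37.4% of all promoters and 38.6% of those of genes in the table) in the promoter shown. Taldo1 held 1 match to CCAAT before its start, and Rpe held 1 past its start. A second promoter listed for Pgd held 1 match to TGACNNNGC just past its start. GGGCGG, found in 35.7% of all promoters and in 64.6% of those of genes in the table, occurred in at least 1 window of each of the 7 genes, with 5 matches for Tkt and 2 for Rpe. CACGTG (7.15% of all promoters and 10.7% of those of genes in the table) and TGATGCAAT (0.192% and 0.108%) had no match in the windows of the 7 genes. These letters are a description of the windows and say nothing on whether a factor bound there.

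The cells carried the markers of their label. Of 6 T cell genes, 5 were in the table, with summed levels of 655 to 811 FPKM in oligomycin libraries and 629.9 to 764 FPKM in DMSO libraries. All 7 Th17 genes were present, with sums of 391 to 590.5 FPKM in oligomycin libraries and 1770.3 to 2062 FPKM in DMSO libraries. Il17a, the gene of the signature cytokine, averaged 12.5 ± 2.45 FPKM with oligomycin and 247 ± 15.4 FPKM with DMSO (SD, n = 3 each). Il17f averaged 297 ± 75.5 FPKM with oligomycin and 1469.7 ± 129 FPKM with DMSO, and Cd4 averaged 88.5 ± 14.5 FPKM with oligomycin and 99.8 ± 8.94 FPKM with DMSO. No row named a marker of B cells (4 listed), myeloid cells (5 listed) or erythroid cells (4 listed), 1 of 2 CD8 T cell markers was present at 2.41 to 3.30 FPKM with oligomycin and 2.63 to 3.12 FPKM with DMSO, and 1 of 3 NK cell markers, Klrd1, at 5.53 to 23.8 FPKM with oligomycin and 12.8 to 34.6 FPKM with DMSO. The T cell gene Trac and the glycolytic gene Gapdh had no row either, so a missing row does not show that a gene was not expressed. The part of Klrd1-bearing cells in the results was not tested.

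The whole table was fitted with limma on log2(FPKM + 1), which understates changes of low genes, and a gene was called at a Benjamini-Hochberg adjusted p under 0.05 over the 9986 rows tested. Of these, 30.2% were called, 16.1% lower and 14.0% higher with oligomycin. Without DMSO replicate 1 the calls numbered 1887 in place of 3013, and without DMSO replicate 3 they numbered 1769. All 6 exact rows and the Tkt row passed the filter on low values, with at least 1 FPKM in every library. Of the 6 exact rows 3 were called lower (Pgd, G6pdx and Taldo1), 0 were called higher and 3 were not called. With the Tkt row the count was 4 of 7. The 4 called rows were also those whose oligomycin values all lay below every DMSO value, as did those of 24.3% of tested rows. 23.1% of tested rows had all oligomycin values above every DMSO value, and 0 of the 7 did. The median log2 change was -0.21 over the 6 rows and -0.35 over the 7, against -0.0044 over all rows tested.

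**Figure D1:**
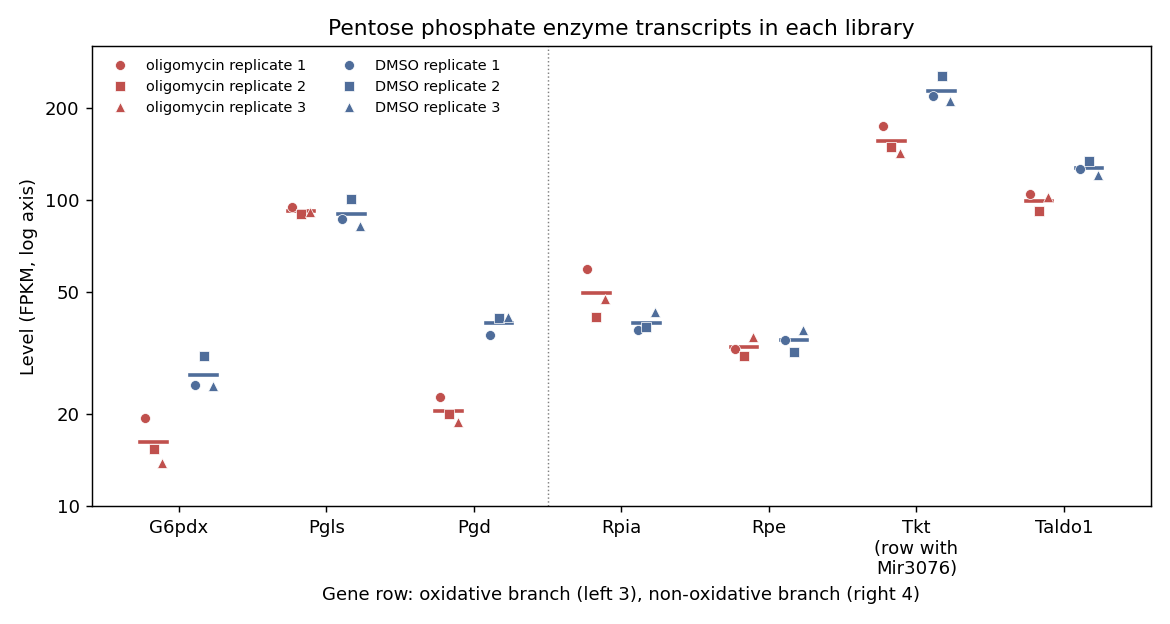
Level in FPKM (log axis) of each enzyme row in every library, with oligomycin libraries in red, DMSO libraries in blue and short lines at group means. The red and blue points separate for G6pdx, Pgd, Tkt and Taldo1 and overlap for Pgls, Rpia and Rpe.

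G6pdx encodes glucose-6-phosphate dehydrogenase, which commits glucose 6-phosphate to the pathway and forms its first NADPH. It stood at 19.4, 15.4 and 13.8 FPKM in the oligomycin libraries and at 24.8, 31.1 and 24.7 FPKM in the DMSO libraries. The highest oligomycin library stayed below the lowest DMSO library. The mean was 16.2 ± 2.91 FPKM with oligomycin and 26.9 ± 3.66 FPKM with DMSO (SD, n = 3 each), a 1.66-fold lower mean, and the fitted log2 change was -0.70 (SE 0.15, limma adjusted p = 0.0109). The call of G6pdx held in all 13 other settings, with log2 changes between -0.83 and -0.59 and adjusted p between 0.00501 and 0.0408.

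Reads of other genes could enter that row. In the longest coding transcript of G6pdx in GENCODE M21, 7.65% of all 50-base stretches also occur in G6pd2, an intronless copy on chromosome 5, and 3.19% occur on the opposite strand in Ikbkg. G6pd2, named here after its values were seen, averaged 3.06 ± 0.802 FPKM with oligomycin and 4.82 ± 0.670 FPKM with DMSO (SD, n = 3 each; log2 change -0.53, limma adjusted p = 0.056), so its level was far below that of G6pdx in both groups and its groups did not overlap either. G6pd2 was called under quantile normalization (adjusted p = 0.0316), with the replicate block (0.0252) and without oligomycin replicate 2 (0.0336). Ikbkg, the gene of the NF-κB kinase subunit NEMO, went the other way, at 15.1 ± 1.24 FPKM with oligomycin and 10.8 ± 0.622 FPKM with DMSO (log2 change 0.45, limma adjusted p = 0.0197). Leaving out DMSO replicate 1 or DMSO replicate 3 ended the call of Ikbkg (adjusted p of 0.0653 and 0.0799). How the authors' counting split such reads, and whether it used strand, is not given in the sources used here, so the level of G6pd2 in particular is uncertain.

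Pgls encodes 6-phosphogluconolactonase, which opens the lactone that G6pdx forms. It stood at 95.3, 90.5 and 91.5 FPKM with oligomycin and at 86.6, 101 and 82.7 FPKM with DMSO, and the oligomycin values lay within the DMSO range. Its fitted log2 change was 0.04, with a 95% interval from -0.23 to 0.31 (limma adjusted p = 0.808). The change was 0.22 under quantile normalization (adjusted p = 0.136) and 0.16 after rescaling without small RNA rows (0.268), not called in either. The main interval lies above the fitted change of either dehydrogenase, although a missed threshold does not show that the level was the same.

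Pgd encodes 6-phosphogluconate dehydrogenase, which forms the second NADPH and releases carbon dioxide. It stood at 22.7, 20.0 and 18.9 FPKM with oligomycin and at 36.4, 41.3 and 41.7 FPKM with DMSO. The groups were far apart relative to their spread. The mean was 20.5 ± 1.96 FPKM with oligomycin and 39.8 ± 2.98 FPKM with DMSO (SD, n = 3 each), a 1.94-fold lower mean, with a log2 change of -0.92 (SE 0.12, limma adjusted p = 0.000926). This was the lowest change among the 7 enzymes in every setting run, and 6.37% of tested rows had a lower one with all libraries. The call held in all 13 other settings, with log2 changes between -0.996 and -0.832.

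**Figure D2:**
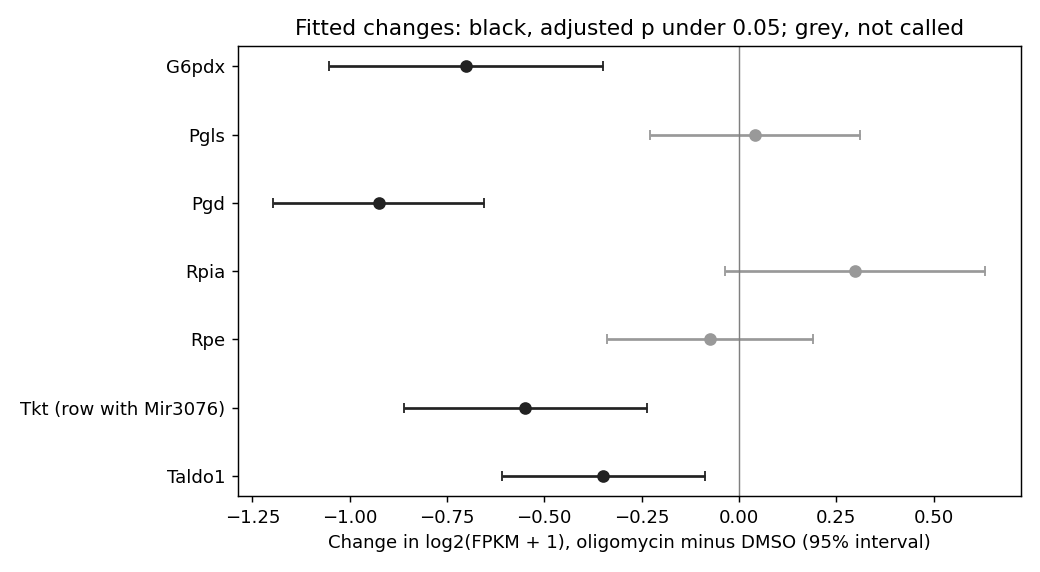
Fitted change in log2(FPKM + 1), oligomycin minus DMSO, with its 95% interval for each enzyme row (black, adjusted p under 0.05; grey, not called). The interval lies below 0 for G6pdx, Pgd, Tkt and Taldo1 and spans 0 for Pgls, Rpia and Rpe.

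Within the oxidative branch the ratio of the transcripts thus differed between the groups. The ratio of Pgls to Pgd was 4.20, 4.53 and 4.86 in the oligomycin libraries and 2.38, 2.44 and 1.99 in the DMSO libraries. The ratio of Pgls to G6pdx was 4.90, 5.88 and 6.63 with oligomycin and 3.49, 3.25 and 3.35 with DMSO. Neither ratio overlapped between the groups, and a ratio within a library does not depend on how libraries were scaled. How often the ratios of other gene pairs separate was not counted. Of single tested rows, 24.3% had no overlap with oligomycin lower and 23.1% with oligomycin higher. The ratio of Pgd to G6pdx was 1.17, 1.299 and 1.365 with oligomycin and 1.46, 1.33 and 1.69 with DMSO, which overlapped. Summed over both dehydrogenases, the level was 36.7 ± 4.87 FPKM with oligomycin and 66.7 ± 5.62 FPKM with DMSO (SD, n = 3 each). The ratio of the oxidative sum to that of Rpia, Rpe and Taldo1 was 0.698, 0.764 and 0.668 with oligomycin. With DMSO it was 0.741, 0.847 and 0.739, which overlapped. Counting the Tkt row, it was 0.369, 0.400 and 0.378 with oligomycin and 0.353, 0.377 and 0.361 with DMSO, again with overlap. This ratio of branches was planned, and the pairs of single genes were not. The ratio of Rpia to Rpe was 1.83, 1.35 and 1.34 with oligomycin and 1.08, 1.21 and 1.14 with DMSO. It did not overlap between the groups, although neither row was called. Each other pair that separated sets a called row beside a row not called. No test was made on sums and ratios of members.

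**Figure D3:**
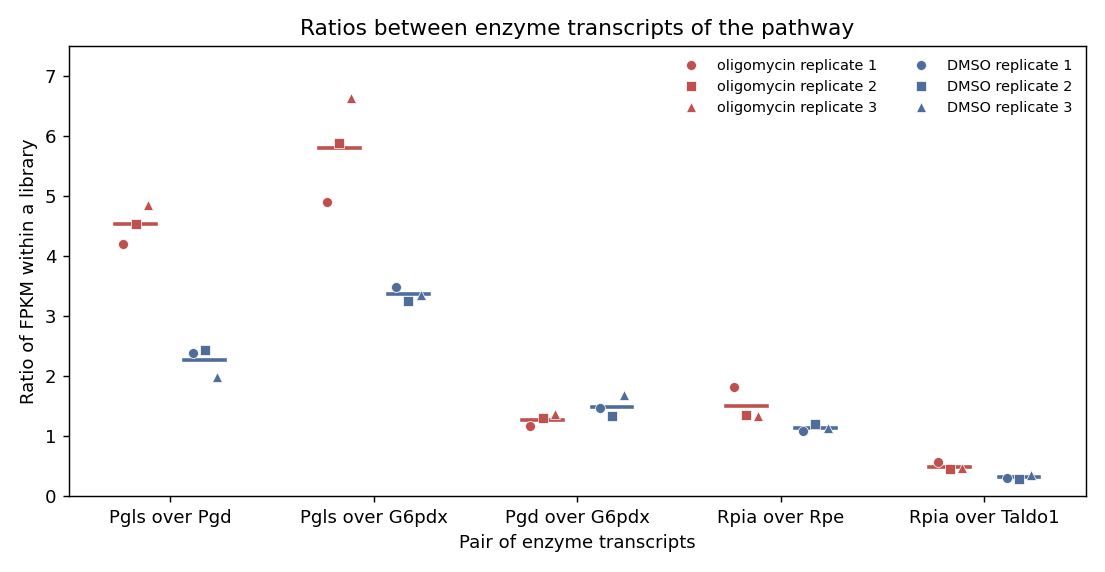
Ratios of FPKM between pairs of pathway enzymes within each library, with oligomycin in red, DMSO in blue and short lines at group means. Pgls over Pgd ran from 4.20 to 4.86 with oligomycin and from 1.99 to 2.44 with DMSO, and Pgd over G6pdx overlapped between the groups.

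In the non-oxidative branch Rpia and Rpe take ribulose 5-phosphate to ribose 5-phosphate and to xylulose 5-phosphate. Rpia, the isomerase, stood at 59.6, 41.7 and 47.6 FPKM with oligomycin and at 37.8, 38.6 and 43.1 FPKM with DMSO. Oligomycin replicate 1 was the highest library, and oligomycin replicate 2 lay below DMSO replicate 3. The log2 change was 0.30 with a 95% interval from -0.04 to 0.63 (limma adjusted p = 0.154). It was positive in all 13 other settings, between 0.16 and 0.42, and called in none of them, with adjusted p between 0.0522 and 0.337.

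Rpe, the epimerase, stood at 32.6, 31.0 and 35.6 FPKM with oligomycin and at 34.9, 31.9 and 37.8 FPKM with DMSO. The groups overlapped over nearly their whole range, and the log2 change was -0.07 (95% interval from -0.34 to 0.19, limma adjusted p = 0.652). It was 0.01 under quantile normalization and 0.04 when libraries were rescaled without small RNA rows. In the longest coding transcript of Rpe, 19.1% of 50-base stretches occur on the opposite strand in Kansl1l, which averaged 2.68 ± 0.601 FPKM with oligomycin and 1.11 ± 0.253 FPKM with DMSO (SD, n = 3 each; log2 change 0.79, limma adjusted p = 0.0154), both far below the level of Rpe. Leaving out DMSO replicate 1, DMSO replicate 3 or oligomycin replicate 3 ended the call of Kansl1l (adjusted p of 0.0598, 0.0571 and 0.0629).

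Tkt and Taldo1 encode transketolase and transaldolase, which shuttle carbon units between pentose phosphates and the glycolytic intermediates fructose 6-phosphate and glyceraldehyde 3-phosphate. The Tkt row stood at 175, 150.0 and 143 FPKM with oligomycin and at 219, 255 and 211 FPKM with DMSO, with no overlap. Its mean was 156 ± 17.2 FPKM with oligomycin and 229 ± 23.5 FPKM with DMSO (SD, n = 3 each), with a log2 change of -0.55 (SE 0.14, limma adjusted p = 0.0181). Leaving out DMSO replicate 2 ended the call (log2 change -0.47, adjusted p = 0.0686), as did leaving out oligomycin replicate 3 (-0.49 and 0.0678), and each of these left 2 of the 7 rows called. Under quantile normalization the change was smaller, at -0.33, and still called (adjusted p = 0.0478). Rows that named a small RNA together with another gene numbered 46 in the table and had a median level of 43.0 FPKM, against 14.2 FPKM for rows of 1 gene that is no small RNA. The part of Mir3076 in the change of the Tkt row was not tested. None of the 50-base stretches of the longest coding Tkt transcript (0 of 3174) occurred in another gene.

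Taldo1 stood at 105, 92.0 and 103 FPKM with oligomycin and at 127, 134 and 121 FPKM with DMSO. The groups did not overlap, but the difference was modest. The mean was 99.9 ± 6.84 FPKM with oligomycin and 127 ± 6.76 FPKM with DMSO (SD, n = 3 each), a 1.28-fold lower mean, with a log2 change of -0.35 (SE 0.11, limma adjusted p = 0.0493). Taldo1 kept its call in 3 of 13 other settings, and its adjusted p reached 0.25 under quantile normalization (log2 change -0.16). Leaving out any of 5 libraries, all but oligomycin replicate 1, ended the call (adjusted p of 0.0989 to 0.152), as did the column number as a replicate block (0.0551). Of the 50-base stretches in its longest coding transcript 10.9% occur in the processed pseudogene Gm17823, so its level is uncertain to that extent.

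**Figure D4:**
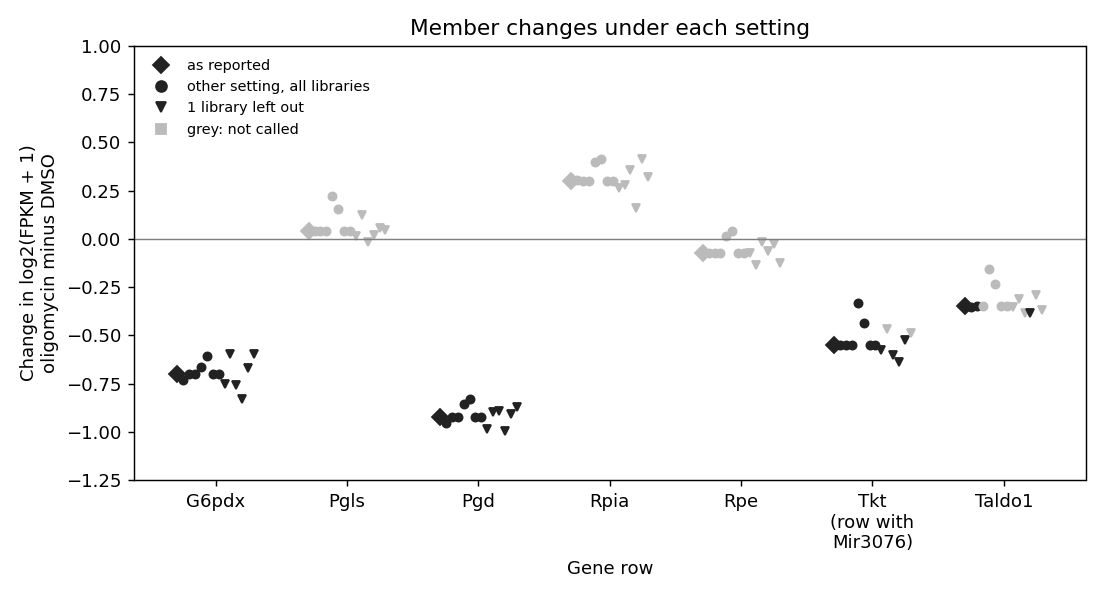
Change in log2(FPKM + 1), oligomycin minus DMSO, of each enzyme row as reported (diamonds), under other settings with all libraries (circles) and with 1 library left out (triangles); black, adjusted p under 0.05; grey, not called. G6pdx and Pgd were called in all 13 other settings, the Tkt row in 11, Taldo1 in 3 and Pgls, Rpia and Rpe in 0.

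The order of the levels was led by the same 3 rows in both groups, the Tkt row, Taldo1 and Pgls. With oligomycin they were followed by Rpia (mean 49.6 FPKM), Rpe (33.1), Pgd (20.5) and G6pdx (16.2), where the library ranges of Taldo1 and Pgls overlapped, as did those of Pgd and G6pdx. With DMSO they were followed by Rpia (39.8 FPKM), Pgd (39.8), Rpe (34.9) and G6pdx (26.9), where the ranges of Rpia and Pgd overlapped, as did those of Pgd and Rpe. Pgd thus lay below the range of Rpe with oligomycin and within reach of it with DMSO. Over all 6 libraries the Tkt row exceeded 96.4% of tested rows in mean level, and G6pdx, the lowest member, exceeded 62.0%.

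The 6 exact rows summed to 334, 291 and 310.2 FPKM with oligomycin and to 347, 378 and 351 FPKM with DMSO, a mean of 0.869 of the DMSO mean. The oligomycin sums lay below every DMSO sum. Taken as a share of the FPKM of rows without small RNA, however, the oligomycin and DMSO sums overlapped, and the oligomycin mean was 0.941 of the DMSO mean. With the Tkt row the sums were 509.9, 441 and 453 FPKM with oligomycin and 567, 633 and 562 FPKM with DMSO. Taken as a share in the same way, these sums did not overlap, and the oligomycin mean was 0.862 of the DMSO mean. Pgd made up 6.58 ± 0.438% of the sum of the 6 rows with oligomycin and 11.1 ± 0.720% with DMSO, and Rpia made up 15.8 ± 1.79% with oligomycin and 11.1 ± 1.07% with DMSO (SD, n = 3 each). The ratio of Rpia to Taldo1 was 0.569, 0.453 and 0.463 with oligomycin and 0.298, 0.287 and 0.357 with DMSO, with no overlap.

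Rows that name a small RNA took 80.8% to 82.2% of the FPKM sum in the oligomycin libraries and 72.0% to 78.0% in the DMSO libraries. When libraries were rescaled to the rows without small RNA, the median change of all rows tested shifted by 0.11 on the log2 scale, and 1949 rows were called higher and 1273 lower, in place of 1403 and 1610. Pgd (log2 change -0.83), G6pdx (-0.61) and the Tkt row were still called there, Taldo1 (-0.24, limma adjusted p = 0.118) was not.

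Among the 7 rows, G6pdx and the Tkt row followed each other most closely across the 6 libraries, with a root mean square distance of 0.0941 between their log2(FPKM + 1) values after centring each gene. Pgd and Rpia were the farthest apart, at 0.622. The genes nearest to a member were sought among 7701 single-gene rows with a mean of at least 5 FPKM. G6pdx was nearest to Tubg1 (distance 0.0284) and Bmpr1a (0.0459), Pgd to Nab2 (0.0729) and 4930427A07Rik (0.0733), and the Tkt row to Plekha2 (0.0227) and Dnmt1 (0.04). Taldo1 was nearest to Polr2j (0.0305) and Dnajc8 (0.0334), and Pgls to Brf2 (0.0203) and Tbcd (0.0348). Rpia was nearest to Kpna1 (0.055) and Phf10 (0.0624), and Rpe to Ivns1abp (0.0122) and Rnf7 (0.0256). The median distance of all rows searched ran from 0.229 for Pgls to 0.482 for Pgd.

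Of 16 listed genes next to the pathway, 12 were tested in rows of their own, of which 2 fell, 0 rose and 10 were not called, with a median log2 change of -0.08. The share that fell was close to that of all rows tested (16.1%). The row Pgm2 on chromosome 4, which RefSeq now names Pgm1 and which encodes the phosphoglucomutase that links glycogen to glucose 6-phosphate, stood at 23.5, 17.6 and 20.5 FPKM with oligomycin and at 59.2, 65.5 and 46.5 FPKM with DMSO. It fell by 1.43 on the log2 scale (SE 0.16, limma adjusted p = 0.000483), more than any member. Dera, the gene of deoxyribose-phosphate aldolase, averaged 28.6 ± 3.69 FPKM with oligomycin and 38.6 ± 1.97 FPKM with DMSO (SD, n = 3 each; log2 change -0.43, limma adjusted p = 0.0324). It lost its call when any of the same 5 libraries was left out (adjusted p of 0.0757 to 0.102), under quantile normalization (0.0503) and after rescaling without small RNA rows (0.0644).

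Rbks, the ribokinase gene, averaged 3.20 ± 1.06 FPKM with oligomycin and 6.26 ± 2.24 FPKM with DMSO (SD, n = 3 each) and was not called with all libraries (log2 change -0.77, limma adjusted p = 0.0522), but it was called without DMSO replicate 3 (adjusted p = 0.0313), without oligomycin replicate 2 (0.0281), under quantile normalization (0.0354) or with the replicate block (0.0171). H6pd, which encodes the glucose 6-phosphate dehydrogenase of the endoplasmic reticulum, averaged 6.19 ± 1.0 FPKM with oligomycin and 5.75 ± 0.272 FPKM with DMSO (SD, n = 3 each; log2 change 0.08). The genes of phosphoribosyl pyrophosphate synthetase, which takes ribose 5-phosphate into nucleotide synthesis, were not called: Prps1 averaged 82.2 ± 16.5 FPKM with oligomycin and 82.2 ± 8.94 FPKM with DMSO, and Prps2 averaged 45.2 ± 6.18 FPKM with oligomycin and 37.1 ± 3.12 FPKM with DMSO (SD, n = 3 each). Prps2 had a log2 change of 0.27 (limma adjusted p = 0.148) and was called under quantile normalization (adjusted p = 0.0393) and after rescaling without small RNA rows (0.0402). Its partners Prpsap1 and Prpsap2 had log2 changes of -0.23 and 0.15, Tigar (listed by an older symbol), which encodes a fructose-bisphosphatase that favours the pathway, -0.15, Pgm2l1 0.09 (0.035 to 0.15 with 1 library left out) and the sedoheptulose kinase gene Shpk 0.47 (0.17 without oligomycin replicate 2 and 0.72 without oligomycin replicate 1). The row Pgm1 on chromosome 5, which RefSeq now names Pgm2, had -0.36 (limma adjusted p = 0.0936), and it was called with the replicate block (adjusted p = 0.04) and without oligomycin replicate 1 (0.0437). Prps1l3 was named only in a row with Mipol1 (log2 change -0.01).

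Of 10 tested genes listed for other NADPH-forming or related enzymes and NAD kinases, 2 were lower and 2 higher. Those counts were near the shares of all rows tested (16.1% lower and 14.0% higher). Idh1, the cytosolic NADP-dependent isocitrate dehydrogenase gene, stood at 1.83, 2.97 and 3.25 FPKM with oligomycin and at 9.94, 8.49 and 8.65 FPKM with DMSO, with no overlap (log2 change -1.46, SE 0.18, limma adjusted p = 0.000697). Nadk2, the mitochondrial NAD kinase gene, listed under the older symbol Nadkd1, averaged 8.01 ± 2.0 FPKM with oligomycin and 13.7 ± 1.71 FPKM with DMSO (SD, n = 3 each; log2 change -0.72, limma adjusted p = 0.0191), and its call was lost without DMSO replicate 1 (adjusted p = 0.0686) or 3 (0.0539). Aldh1l2 and Mthfd2, both genes of mitochondrial folate enzymes, rose, while a further mitochondrial folate gene, Mthfd1l, named after its value was seen, had a log2 change of -0.31 (limma adjusted p = 0.126). Aldh1l2 stood at 6.86, 5.13 and 5.22 FPKM with oligomycin and at 0.516, 0.430 and 0.390 FPKM with DMSO (log2 change 2.21, limma adjusted p = 7.01e-05), and it passed the filter through its oligomycin values alone. Mthfd2 averaged 151 ± 26.1 FPKM with oligomycin and 93.7 ± 8.80 FPKM with DMSO (SD, n = 3 each; log2 change 0.68, limma adjusted p = 0.011), and its call was lost without DMSO replicate 3 (adjusted p = 0.0514).

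Of 12 tested enzymes that use NADPH in glutathione, thioredoxin, quinone and related reductions, 3 fell, 1 rose and 8 were not called (median log2 change -0.25), against 16.1% lower and 14.0% higher of all rows tested. Cyba, which encodes the p22phox subunit of NADPH oxidases, averaged 154 ± 11.2 FPKM with oligomycin and 286 ± 26.9 FPKM with DMSO (SD, n = 3 each; log2 change -0.89, limma adjusted p = 0.00172). Nqo2, a quinone reductase gene that passed the filter through its DMSO values alone, had a log2 change of -0.63, and Cbr1, a carbonyl reductase gene, had one of 0.50. Cbr1 lost its call when any of those 5 libraries was left out (adjusted p of 0.0544 to 0.0921), and Nqo2 lost it when oligomycin replicate 1 (0.0634) or 3 (0.111) was left out.

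A list of targets of NRF2, the regulator of the antioxidant response to which pathway genes also belong, held 9 tested genes. Among them were also Nfe2l2, which encodes NRF2 itself, and Keap1. Of these 9, 1 rose, 0 fell and 8 were not called (median log2 change -0.14). The share that rose was near the 14.0% of all rows tested, of which 16.1% fell. The gene that rose was Gclc, the catalytic subunit of glutamate-cysteine ligase, with a log2 change of 0.47 (limma adjusted p = 0.0374), a call that ended when DMSO replicate 1 (0.126), DMSO replicate 3 (0.0943), oligomycin replicate 2 (0.0706) or oligomycin replicate 3 (0.116) was left out. The 3 genes with the next smallest p were not called with all libraries. They were Prdx1 (peroxiredoxin, -0.41, adjusted p = 0.0632, called without oligomycin replicate 1 at 0.0198), Gsr (glutathione reductase, -0.36, adjusted p = 0.108, called with the replicate block at 0.0366) and Keap1, the gene of the NRF2 inhibitor (-0.21, adjusted p = 0.155), all from limma, and the log2 changes of the list lay between those of Prdx1 and Gclc.

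Glucose uptake and upper glycolysis, which supply glucose 6-phosphate and exchange sugar phosphates with the non-oxidative branch, had 10 of 11 tested genes lower and 0 higher (median log2 change -0.97), against 16.1% of all rows tested lower. Slc2a3, Aldoc, Tpi1 and Slc2a1 had the smallest p, with log2 changes of -1.98, -2.60, -1.68 and -1.18, and Aldoc passed the filter with 1 oligomycin library beside the 3 of DMSO. The gene not called was Gpi1, the isomerase that stands next to the branch point between glucose 6-phosphate and fructose 6-phosphate, at 116, 119 and 97.2 FPKM with oligomycin and at 126, 161 and 125 FPKM with DMSO. Its groups did not overlap, and its log2 change was -0.30 (SE 0.15, limma adjusted p = 0.148). The list was chosen with its direction already known, and whether the members changed less than its genes was not tested.

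**Figure D5:**
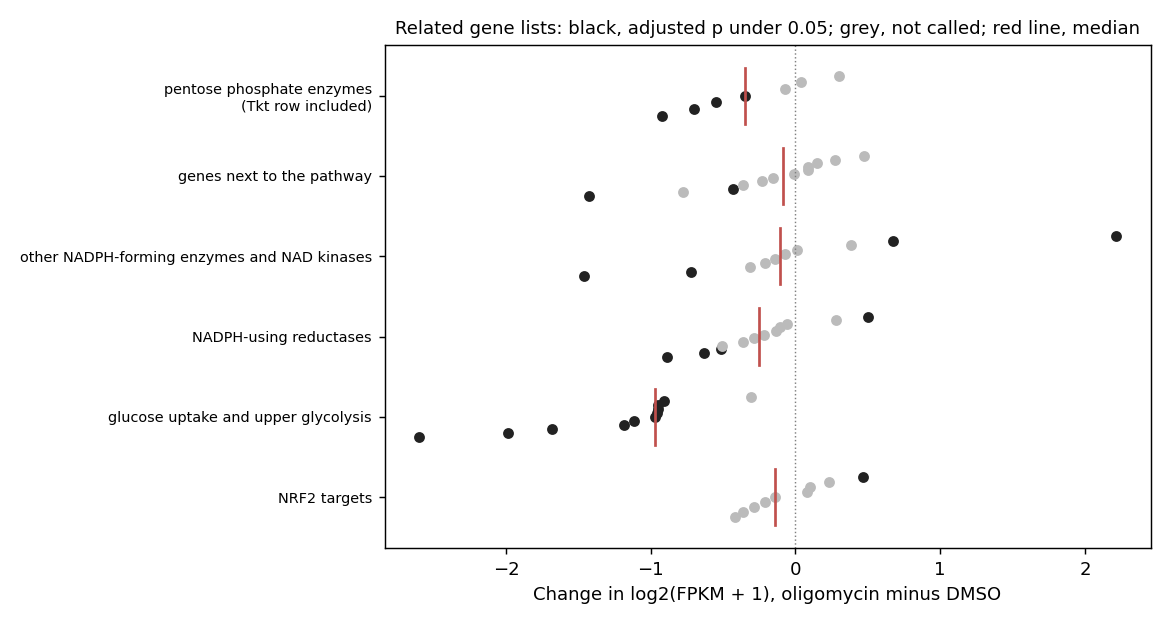
Change in log2(FPKM + 1), oligomycin minus DMSO, of the 7 pathway rows and of the tested genes of 5 related lists; each point is a gene (black, adjusted p under 0.05; grey, not called) and red lines are medians. The medians were -0.35 for the 7 rows, -0.97 for glucose uptake and upper glycolysis and between -0.25 and -0.08 for the 4 other lists.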

How the data were processed

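Gene levels came from 1 deposited table of FPKM with 1 column per library; the authors made these FPKM values, and the tools in the submitters' processing notes are Cuffdiff (version 2.2.1.3), Cuffnorm (version 2.2.1.1), Cufflinks (version 2.2.1.0) and TopHat2 (version 2.1.0), and the build is GRCm38 (mm10). The sources used here do not give what each tool did, the annotation, how libraries were scaled, the strand or how reads with several matches were counted. Sample titles carry numbers of their own, each on 1 oligomycin and 1 DMSO sample, which may mark pairs. Columns carry other numbers, from 1 to 3, so columns were mapped to groups only, replicate numbers here are column numbers, and the pairs of the titles could not be fitted. Sequencing depth is unknown, so no counting interval is given.

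Rows with at least 1 FPKM in at least 3 of 6 libraries (9986 of 10041) entered limma (version 3.58.1 in R 4.3.3) on the scale log2(FPKM + 1), with an intensity trend and group alone in the model; p-values are 2-sided and were adjusted by Benjamini-Hochberg over every row tested; the procedure was tested on simulated data. Errors are SD over libraries or SE of the fitted change. Starts were read as counted from 0, since adding 1 matched 2386 of 9015 GENCODE M21 starts, against 327 without. Shared 50-base stretches were sought in all GENCODE M21 transcripts, and promoters came from RefSeq. Alternatives were a pseudocount of 0.1, no filter, a filter of 5 FPKM, quantile normalization, rescaling without the 186 rows that name a small RNA, no intensity trend, the column number as a replicate block and leaving out each library; the count with the Tkt row was added after the data were seen. Members and lists were chosen with earlier results of these data known. Named were all members, every gene of the list next to the pathway, the 4 genes with the smallest p of the other lists with those needed for a range, the 2 nearest rows of each member, and Il17a, Il17f and Cd4 as a check of the cell type (a few genes of this rule are not reported here); G6pd2, Ikbkg, Kansl1l, Mthfd1l and Klrd1 were chosen after their values were seen.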

Additional observations from a re-analysis of the deposited data

How the results depend on the processing

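The changes of G6pdx and Pgd kept direction and call in all 13 alternatives. Taldo1 was not called with a filter of 5 FPKM or no intensity trend (log2 change -0.35 in both), with quantile normalization (-0.16), after rescaling without small RNA rows (-0.24) or with the replicate block (-0.35), and ranged from -0.39 to -0.29 with 1 library left out. The Tkt row ranged from -0.64 to -0.47 there and was -0.33 under quantile normalization. Pgls ranged from -0.017 to 0.13 with 1 library left out and was 0.22 under quantile normalization. Rpe was 0.013 under quantile normalization and 0.039 after rescaling. With 1 library left out, called rows numbered 1769 to 3248 (989 to 1861 lower, 780 to 1387 higher), enzyme rows called lower 2 to 3 of 6 (2 to 4 of 7 with the Tkt row), and genes of the 5 lists called higher 1 to 4, against 4 with all libraries. Changes near 0 turned sign for H6pd (-0.023 to 0.17 with 1 library left out), Prps1 (0.14 under quantile normalization, 0.10 after rescaling, -0.17 to 0.092 with 1 library left out) and the Prps1l3 row (0.11, 0.10, and -0.11 to 0.055); the cause was not tested. Of 36 other named genes, 18 kept direction and call in the alternatives run for them, which were fewer where a low level missed the filter.

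Sample titles share numbers between the groups, but the columns do not carry them. Only column numbers could thus serve as a block, and these were not shown to pair the libraries. Correlations of deviations from group means (across genes, which are not replicates) were 0.0556, 0.247 and 0.132 for same-numbered columns. For the other pairs of columns they ran from -0.216 to 0.117. Oligomycin replicate 1 correlated best with DMSO replicate 3 (0.117), and oligomycin replicates 2 and 3 with the DMSO column of their own number. The replicate block called 3532 rows in place of 3013, and 2 of the 6 enzyme rows in place of 3. Depth is unknown, and 3 libraries per group limit what changes of the size of Taldo1 or Rpia can be called.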
